A study of Trichoderma reesei with 6 samples.

Results

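The genes described here were gene models abundant on glucose and lower by a set factor on xylose. The organism was Trichoderma reesei, a filamentous fungus used in industry to make cellulases. Members were chosen by their measured FPKM on both sugars: a mean of at least 300 FPKM in the glucose libraries, a xylose mean of at most 0.5 of the glucose mean, and a highest xylose value below the lowest glucose value. FPKM counts fragments per kilobase of a gene model relative to the total of its library, and so is a level per length. The rule gave 107 of the 9129 models in the table. Models of scaffolds 7, 29 and 33, 605 in number, were left out by name. Another 11 models there met the same thresholds and are not counted.

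RNA was sequenced from hyphae of strain HJ48 aged 4 days, in 3 libraries from anaerobic glucose fermentation and 3 from anaerobic xylose fermentation. The series title calls the strains recombinant, and the labels give no allele or construct, so how HJ48 was made cannot be stated here. All 6 libraries share the strain, the age and the lack of oxygen, and no aerobic or parental sample was analysed here. The labels do not say whether libraries of a group came from separate cultures, so the SDs below measure a spread that may be technical.

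In fungi such as Trichoderma, glucose enters glycolysis directly, and without oxygen its carbon leaves mainly through pyruvate as fermentation products. Xylose is first reduced to xylitol, oxidised to xylulose and phosphorylated, and reaches glycolysis by way of the pentose phosphate pathway. Glucose also represses many genes for the use of other carbon sources, through the repressor CRE1 in this species. Which of these genes are among the members is not known here: the table names models by gene prediction series and scaffold, and 0 of the 9129 names matched an entry among the 9116 genes of the reference table (RefSeq assembly v2.0 of strain QM6a). No symbol, product or sequence is therefore given for any model, and no pathway list could be filled.

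The library totals worked out from the steps between FPKM values were 8887469 to 10102493 reads for glucose and 10739898 to 11449774 for xylose. Of the 7766 models averaging 1 FPKM or more, limma on log2(FPKM + 1) called 14.1% lower and 64.8% higher in xylose at a Benjamini-Hochberg adjusted p under 0.05. The median xylose to glucose ratio of means over those 7766 models was 2.57, so the members stood against a table in which most models were higher. The rule used the same contrast as that test. All 107 members were called lower; 15.2% of tested models had all xylose values below all glucose values and 8.54% had a ratio of at most 0.5, and nothing is read from the members' share. After scaling by the median of ratios, which takes out the general rise, 36.0% of tested models and again all 107 members were called lower. In bulk RNA, fewer cells of a type and less RNA per cell cannot be told apart.

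Together the members held a far larger share of all summed FPKM on glucose than on xylose. It was 26.9%, 30.9% and 27.9% in glucose replicates 1, 2 and 3, and 7.65%, 8.29% and 8.81% in xylose replicates 1, 2 and 3. The means were 28.6% ± 2.07 and 8.25% ± 0.579 (SD, n = 3). Counted in reads, without the division by length, the share was 22.7% ± 1.13 of a glucose library and 6.95% ± 0.680 of a xylose library. These values chose the members and are a description.

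The share that the members no longer held on xylose was 20.3 percentage points, and models under 300 FPKM on glucose held more there. The 228 other models of at least 300 FPKM on glucose held 44.4% ± 2.13 of summed FPKM on glucose and 49.6% ± 3.00 on xylose. The rule had taken every model with a ratio of at most 0.5 out of that group. All remaining models, which include scaffolds 7, 29 and 33, held 27.1% ± 0.327 on glucose and 42.1% ± 3.58 on xylose. Within these, the 8765 models under 300 FPKM on glucose held 19.2% ± 0.219 on glucose and 37.5% ± 4.02 on xylose, and the 29 abundant models of the 3 scaffolds held 7.84% ± 0.126 and 4.62% ± 0.449. Shares in a library sum to a fixed total, so a smaller share of the members leaves a larger one to the rest by construction.

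**Figure D1:**
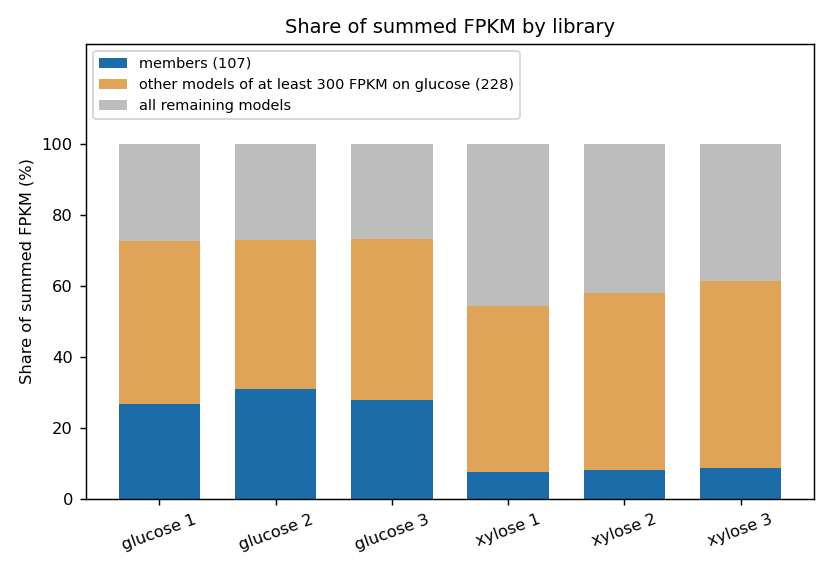
Share of summed FPKM (%, vertical axis) in each of the 6 libraries, split into the 107 members, the 228 other models of at least 300 FPKM on glucose and all remaining models. The members' segment is 26.9% to 30.9% in the glucose libraries and 7.65% to 8.81% in the xylose libraries.

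The member with the highest level was also the most abundant model of every glucose library. fgenesh5_pg.C_scaffold_23000017, on scaffold 23 with an implied length of 267 nt, had 55275, 87029 and 49864 FPKM on glucose and 7733, 5384 and 6476 FPKM on xylose. It ranked 1 in all 3 glucose libraries and 10, 22 and 21 in the xylose libraries. Its lowest glucose value was 6.45 times its highest xylose value, and glucose replicate 2 stood apart from the other glucose libraries. This model alone made up 5.76% to 9.61% of summed FPKM on glucose and 0.650% to 0.920% on xylose. Without it, the other members held 21.3% ± 0.819 on glucose and 7.48% ± 0.678 on xylose.

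The next members in order of glucose level kept high ranks on xylose. fgenesh5_pg.C_scaffold_10000029 had 24165, 25668 and 32505 FPKM on glucose and 11824, 14210 and 14230 FPKM on xylose, and it lay just inside the ratio threshold at 0.489. It ranked 4 in every glucose library and 5 or 6 in the xylose libraries, so it was lower in FPKM while its place changed little. estExt_Genewise1.C_180149 had 15883, 14856 and 19048 FPKM on glucose and 4110, 5232 and 4852 FPKM on xylose. gw1.27.266.1 had 9668, 9472 and 10690 FPKM on glucose and 4459, 4147 and 5942 FPKM on xylose. e_gw1.19.77.1 had 9032, 8467 and 9169 FPKM on glucose and 3457, 4028 and 4275 FPKM on xylose. The lowest glucose value of these 4 members was 1.59 to 2.84 times the highest xylose value.

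The level on xylose parted members that were alike on glucose. estExt_GeneWisePlus.C_60605 had 6043, 6594 and 6200 FPKM on glucose and 2599, 3106 and 3490 on xylose. estExt_fgenesh1_pm.C_270030 had 5576, 6963 and 5151 FPKM on glucose and 523.6, 517.0 and 600.0 on xylose. Their glucose values overlapped, while on xylose the ratio to the glucose mean was 0.488 for the first and 0.0927 for the second. estExt_Genewise1.C_90603 lay between them, with 6484, 6619 and 7035 FPKM on glucose and 1134, 1473 and 1770 on xylose. e_gw1.9.687.1 had 5384, 5080 and 4547 FPKM on glucose and 1043, 1132 and 1431 on xylose. estExt_GeneWisePlus.C_280019 had 4331, 5138 and 4730 FPKM on glucose and 1126, 1393 and 1763 on xylose. In 7 of the 10 most abundant members the lowest xylose value was in replicate 1. Their glucose and xylose values were apart, as the rule requires of every member.

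**Figure D2:**
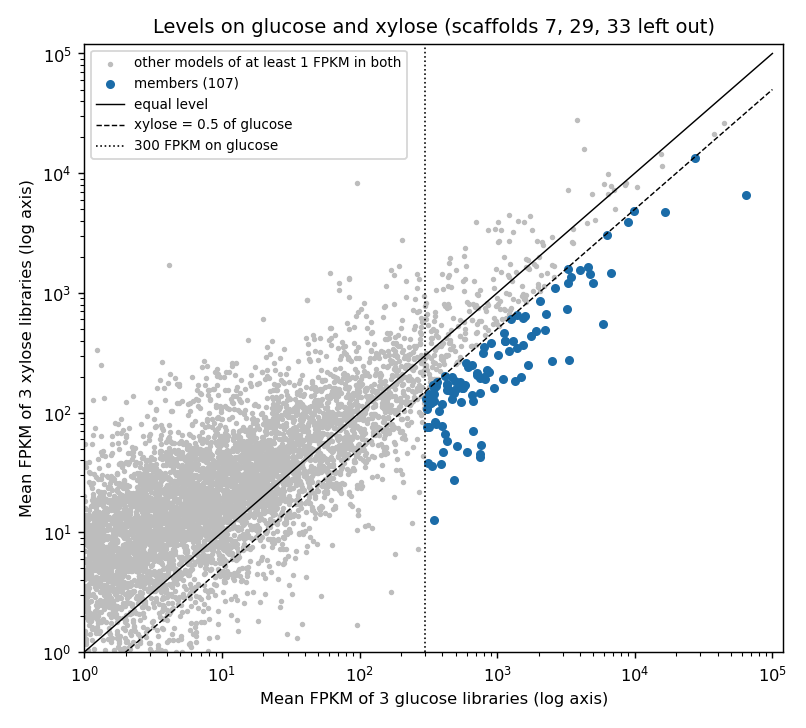
Mean FPKM of 3 xylose libraries against mean FPKM of 3 glucose libraries, both on log axes, for models outside scaffolds 7, 29 and 33; the 107 members are in blue. The members fill the corner right of 300 FPKM and below 0.5 of the glucose level, where ratios run from 0.0362 to 0.4997, while most other models lie above the line of equal level.

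Among the members, the depth of the fall spread widely and showed little correlation with the glucose level. The ratio of xylose to glucose means had a median of 0.292 over the 107 members, with quartiles of 0.214 and 0.396. The median over the 228 other models of at least 300 FPKM was 0.920. The rule left those 228 out because their ratios were above 0.5, the lowest being 0.503, so it set this contrast. On the log2 scale the members' median was -1.77. Ratios of at most 0.1 were held by 9 members, ratios from 0.1 to 0.25 by 32, from 0.25 to 0.4 by 40 and from 0.4 to 0.5 by 26. The median glucose level of these 4 classes was 749, 772, 636 and 795 FPKM. Across members, Pearson's r between log2 glucose mean and log2 ratio was 0.03 and Spearman's rho was -0.02 (n = 107 models, which share the same 6 libraries). The rule cut both values, so these correlations describe this set only.

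Members were found at every height of the glucose ranking. Outside scaffolds 7, 29 and 33, 335 models reached 300 FPKM, and 31.9% of them were members. Of the 10 most abundant of these models 5 were members, and of the next 40, 16 were. The count was 13 of the models ranked 51 to 100, 29 of those ranked 101 to 200 and 44 of the remaining 135. The members' median ratio was 0.441 in the first 10 and 0.252 to 0.318 in the lower groups. Over all models of a group, members included, the median ratio was 0.527 to 0.711. Of the 228 non-members, 135 had a ratio between 0.5 and 1, and 93 had a higher mean on xylose.

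The members with the lowest ratios had glucose means of 350 to 766 FPKM and xylose means of 12.7 to 54.0 FPKM. e_gw1.1.509.1, with an implied length of 1377 nt, had 294, 509 and 248 FPKM on glucose and 13.4, 11.8 and 12.8 FPKM on xylose, a ratio of 0.0362. These xylose levels rest on 198, 186 and 202 reads. On glucose its values were uneven and on xylose nearly equal, and it reached 300 FPKM only through glucose replicate 2, since the mean of replicates 1 and 3 was 270.9 FPKM. e_gw1.18.332.1 had 627, 682 and 938 FPKM on glucose and 41.5, 49.0 and 37.0 FPKM on xylose. estExt_GeneWisePlus.C_320119 had 373, 731 and 353 FPKM on glucose and 28.4, 26.6 and 27.9 FPKM on xylose, the same unevenness on glucose and a similar steadiness on xylose.

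In the other 3 members of lowest ratio the glucose values lay closer together. fgenesh5_pg.C_scaffold_27000037 had 696, 750 and 811 FPKM on glucose and 38.6, 47.8 and 48.7 FPKM on xylose. fgenesh5_pg.C_scaffold_26000081 had 741, 867 and 689 FPKM on glucose and 42.6, 58.5 and 60.9 FPKM on xylose. gw1.27.254.1 had 534, 630 and 654 FPKM on glucose and 35.8, 53.2 and 50.8 FPKM on xylose. In all 6 of these members the lowest glucose value was at least 10 times the highest xylose value, the smallest such gap being 10.05 for gw1.27.254.1 and the widest 18.5 for e_gw1.1.509.1. None was silent on xylose, and 0 of the 107 members had fewer than 134 reads in any xylose library.

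**Figure D3:**
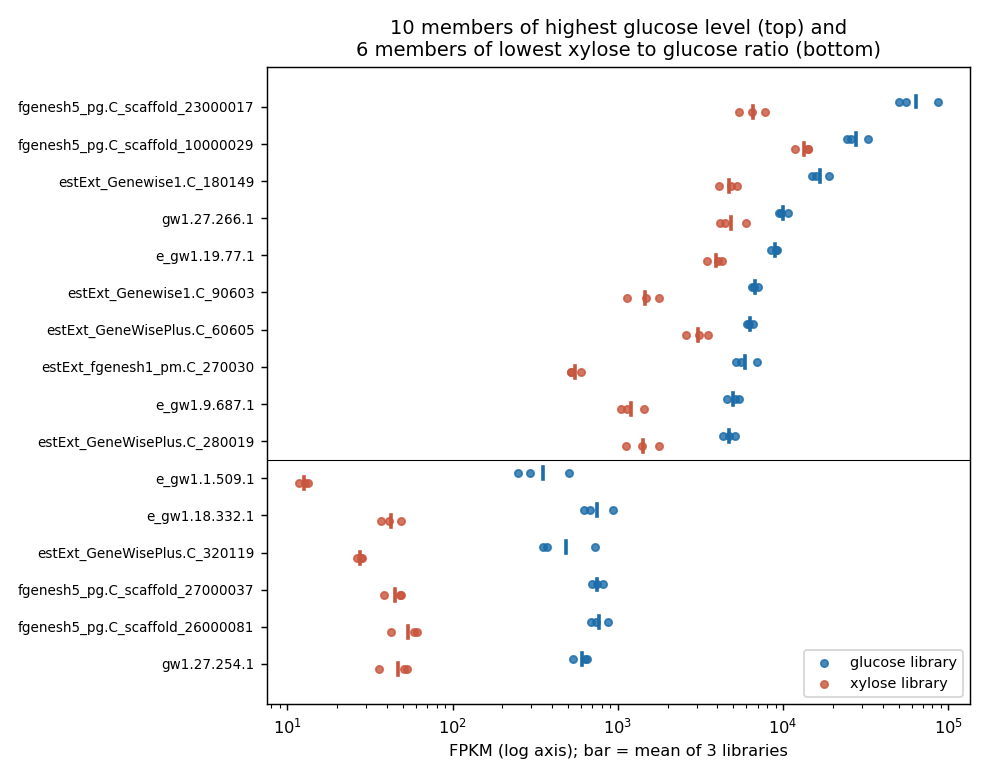
FPKM per library on a log axis for the 10 members of highest glucose level (top) and the 6 of lowest xylose to glucose ratio (bottom), with glucose libraries in blue, xylose libraries in red and bars at the mean of 3 libraries. Blue and red points do not overlap in any row, as the rule requires of every member. The gap is widest for e_gw1.1.509.1, where the lowest glucose value is 18.5 times the highest xylose value.

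Many members remained abundant genes on xylose. A level of at least 300 FPKM in every xylose library was kept by 32 members, and 18 members were under 100 FPKM in every xylose library. The median member had 696, 731 and 726 FPKM in glucose replicates 1, 2 and 3, and 180, 195 and 192 FPKM in xylose replicates 1, 2 and 3. The median tested model moved the other way, with 5.80 ± 0.270 FPKM on glucose and 15.5 ± 3.42 on xylose (SD, n = 3).

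Ranks do not depend on the library total, but they come from the same values that chose the members and are a description. The median member ranked 186, 182 and 174 of 9129 in the glucose libraries and 672, 562 and 559 in the xylose libraries. Members among the 100 most abundant models numbered 31, 32 and 31 in the glucose libraries and 11, 11 and 13 in the xylose libraries. All members stood within the first 429 places in each glucose library, while the last place of a member on xylose was 4675. All 107 ranked lower in each xylose library than in each glucose library, as did 35.7% of tested models. The median rank of the 228 other abundant models was 186 ± 2.75 on glucose and 163 ± 4.04 on xylose. That group was left by the same rule, so the contrast with the members is also set by it.

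**Figure D4:**
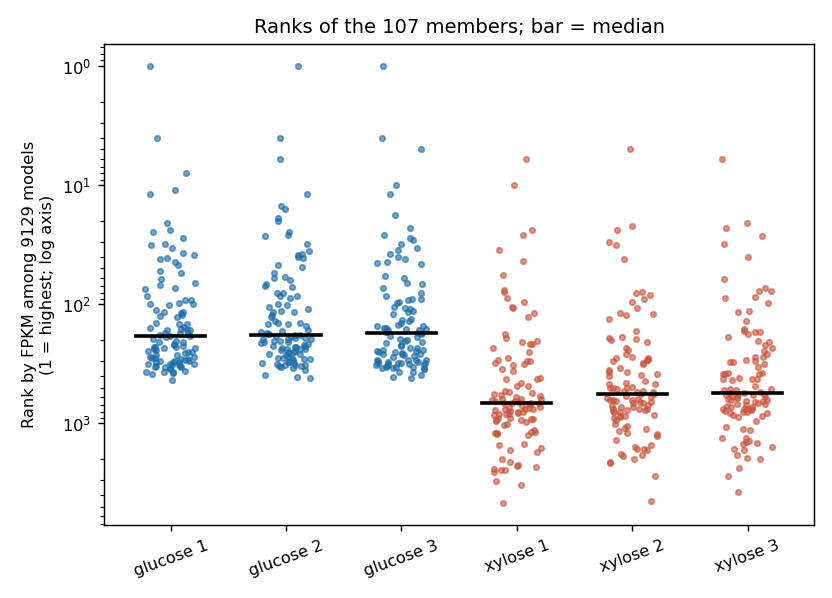
Rank by FPKM among 9129 models (vertical log axis, 1 at the top) of each of the 107 members in the 6 libraries, with a bar at the median. The median rank is 174 to 186 in glucose libraries and 559 to 672 in xylose libraries, and the spread of ranks is wider on xylose.

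Among themselves the members were spread more widely between xylose than between glucose libraries. The median SD of a member on the log2(FPKM + 1) scale was 0.129 within glucose and 0.212 within xylose. The 228 other abundant models had medians of 0.137 and 0.157, and all tested models had 0.181 and 0.311. These values are a description.

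Xylose replicate 1 was the low library for most members. The lowest of a member's 3 xylose values was in replicate 1 for 69 members, in replicate 2 for 22 and in replicate 3 for 16. The 228 other abundant models had their lowest value in replicate 1 in 52.6% of cases, against 64.5% of members. On FPKM as deposited, tested models outside the rule showed the reverse order, with the lowest value in replicate 3 in 61.6% and in replicate 1 in 14.3%. The order of members was thus close to that of other abundant models. After median of ratios scaling, replicate 1 was lowest in 96 members (89.7%) and in 91.2% of other abundant models. Under that scaling the reverse order of tested models outside the rule was gone, with the lowest value in replicate 1 in 39.2% and in replicate 3 in 37.0%. Without xylose replicate 1, 106 models met the rule, 101 of them members. The members' median log2 ratio was then -1.72, against -1.77 with all libraries.

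Some members were far from even among the xylose libraries and others nearly constant. kg2.C_scaffold_1000156 had 50.6, 38.6 and 22.7 FPKM in xylose replicates 1, 2 and 3, after 316, 573 and 285 FPKM on glucose. e_gw1.20.249.1 was lowest in replicate 1, with 209, 403 and 437 FPKM on xylose after 1175, 1850 and 1177 on glucose. e_gw1.8.409.1, with an implied length of 210 nt, had 212, 101 and 165 FPKM on xylose after 477, 708 and 490 on glucose. These 3 had the largest coefficients of variation on xylose, 34.9% to 37.5%, where the median member had 14.6%. The smallest were those of estExt_fgenesh5_pg.C_140092, with 706, 726 and 752 FPKM on xylose after 3014, 3409 and 3307 on glucose, of estExt_GeneWisePlus.C_320119, and of estExt_fgenesh5_pg.C_20195, with 180.5, 185.1 and 172.9 FPKM on xylose after 357.6, 377.2 and 356.9 on glucose.

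A subset of members was high in glucose replicate 2. Its FPKM there was at least 1.4 times the mean of glucose replicates 1 and 3 in 16 members (14.95%), in 13 of the 228 other abundant models (5.70%) and in 18.9% of tested models with a glucose level above 0. The members' share was above that of the other abundant models, which are alike in glucose level. It was below that of all tested models, most of which stood far lower on glucose. A high replicate 2 was thus not confined to members, and whether it was more frequent in them was not tested. This limit was chosen after the values were seen. The number depends on it, with 25 members at a limit of 1.3 and 13 at 1.5. Models lower by the same factor in that library numbered 0 of 107 members, 6 of the 228 other abundant models and 792 of 7737 tested models. Glucose replicate 2 enters the level and the ratio of the rule, so a high value there favours membership and a low one hinders it. Nothing is therefore read from the difference between members and other abundant models.

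Members high in glucose replicate 2 had a lower median ratio than the other members, although that library helped to choose them. Against the mean of glucose replicates 1 and 3 alone, the xylose mean had a median ratio of 0.153 in the 16 members and 0.313 in the other 91. Of the 16 members, 2 reached 300 FPKM only through replicate 2, e_gw1.1.509.1 and e_gw1.32.8.1. Over all 107 members, 5 had a glucose mean under 300 FPKM without replicate 2. When models were chosen by the same rule without that library, 104 met it, 98 of them members. In that set the median ratio was 0.178 over the 14 models at the limit of 1.4 and 0.311 over the other 90. A limit of 1.6 was also chosen after the values were seen, and no support is drawn from it. At that limit there were 9 members (8.41%), against 2.63% of other abundant models and 11.7% of tested models. The 9 members had ratios of 0.0468 to 0.168, and 11 of the other 98 members had ratios that low. The 9 hold e_gw1.1.509.1, estExt_GeneWisePlus.C_320119, kg2.C_scaffold_1000156 and the most abundant member, fgenesh5_pg.C_scaffold_23000017. Of the 16 members at the lower limit, 10 had a ratio of at most 0.2, as did 15 of the other 91. The highest ratio of the 16, 0.461, was that of kg2.C_scaffold_2000050, which the limit of 1.6 leaves out. It had 4116, 5256 and 2628 FPKM on glucose and 2022, 1064 and 1577 on xylose. Over all 107 members the rank correlation of the 2 ratios was -0.14 (Spearman's rho, Pearson's r = -0.28 on the log2 scale), and both divide by the same 2 glucose libraries. What set replicate 2 apart was not tested.

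**Figure D5:**
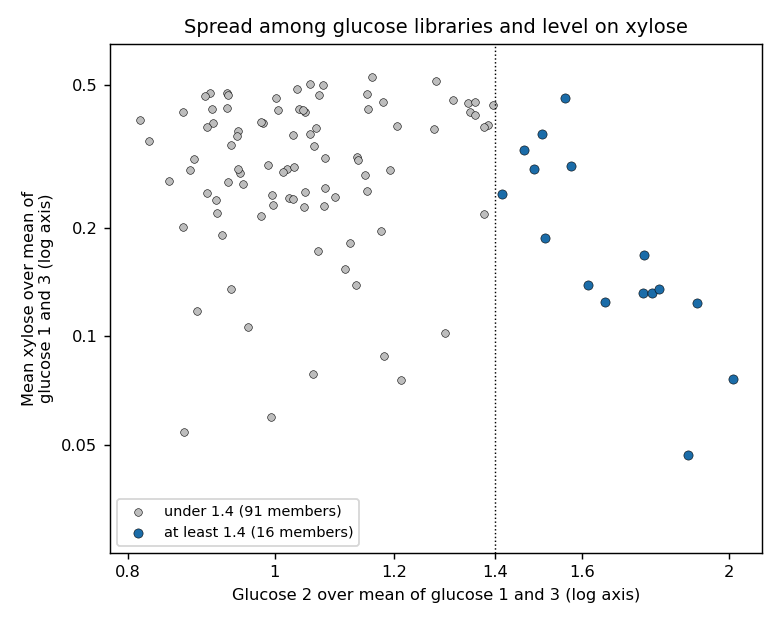
Each point is 1 of 107 members, with glucose replicate 2 over the mean of glucose replicates 1 and 3 on the horizontal log axis and mean xylose over the mean of glucose replicates 1 and 3 on the vertical log axis. The 16 members at or right of 1.4 have a median vertical value of 0.153, and the other 91 have a median of 0.313.

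Members were found on 28 of the 69 scaffolds that model names gave after scaffolds 7, 29 and 33 were left out. Most of the scaffolds without members had no model of at least 300 FPKM on glucose, so they could hold none. Scaffold 2 held 10 members, scaffolds 1, 9 and 27 held 9 each and scaffold 18 held 6. Scaffold 27 is small, with 134 models, and 9 of its 12 models of at least 300 FPKM were members (where 31.9% of all such models were). Scaffold 1, with 1025 models, had 42 of that level and 9 members. Scaffolds 13, 16 and 17 had 5, 8 and 6 such models and 0 members. The position of a model on its scaffold was not analysed here beyond the number in its name.

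The 9 members of scaffold 27 differed widely in level and ratio. They hold gw1.27.266.1 and estExt_fgenesh1_pm.C_270030, among the 10 most abundant members, and fgenesh5_pg.C_scaffold_27000037 and gw1.27.254.1, among the 6 of lowest ratio. e_gw1.27.63.1 had 4408, 4675 and 4681 FPKM on glucose and 1440, 1492 and 2000 on xylose. estExt_Genewise1.C_270100 had 3300, 3404 and 3633 FPKM on glucose and 1210, 1309 and 1557 on xylose. Both were steady within glucose and highest in xylose replicate 3. The ratios of the 9 ran from 0.0598 to 0.488.

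Some members bore neighbouring numbers in the same prediction series. In 2 pairs the numbers differed by 1 and in 2 further pairs by 2. fgenesh5_pg.C_scaffold_2000201 had 335, 546 and 342 FPKM on glucose and 38.4, 55.2 and 47.0 on xylose. Its neighbour fgenesh5_pg.C_scaffold_2000202 had 411, 716 and 394 FPKM on glucose and 43.8, 55.8 and 59.5 on xylose. This pair was alike in ratio, 0.115 and 0.105, and both were highest in glucose replicate 2.

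The remaining pairs were alike to different degrees. fgenesh5_pg.C_scaffold_27000036 had 789, 796 and 810 FPKM on glucose and 183, 195 and 213 on xylose, a ratio of 0.247, where its neighbour fgenesh5_pg.C_scaffold_27000037 had 0.0598. The next measured model of that series, fgenesh5_pg.C_scaffold_27000039, is no member and moved the other way, with 9.40, 8.35 and 9.91 FPKM on glucose and 60.8, 63.4 and 37.0 on xylose. estExt_GeneWisePlus.C_300121 had 365, 605 and 323 FPKM on glucose and 61.7, 46.3 and 65.7 on xylose, and estExt_GeneWisePlus.C_300123 had 550, 931 and 511 FPKM on glucose and 91.3, 62.4 and 56.4 on xylose. This pair on scaffold 30 shared the high glucose replicate 2. estExt_fgenesh5_pg.C_20193 and estExt_fgenesh5_pg.C_20195, with ratios of 0.424 and 0.493, were both in the class of smallest change. The pairs whose numbers differ by 2 were picked after their values were seen.

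Implied lengths of members were close to those of other abundant models. Their median was 1084 nt, where the 228 other abundant models had 1073 nt and all tested models 1315 nt. Lengths of members ran from 93 to 3778 nt, and 18 members had at most 500 nt. Pearson's r between log2 length and log2 ratio over the 107 members was -0.0049. An implied length is the smallest that fits the steps and can be too short. By prediction series, 29 members had names of e_gw1, 21 of estExt_GeneWisePlus, 15 each of estExt_fgenesh5_pg and fgenesh5_pg, 9 of estExt_Genewise1, 8 of estExt_fgenesh1_pm, 4 each of gw1 and kg2 and 2 of fgenesh1_pm.

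Many models lay close to the thresholds. The lowest glucose means inside the rule were 306, 309 and 310 FPKM, and the highest outside, among models that met the other 2 conditions, were 299.8, 295 and 293. The highest ratios inside were 0.4997 for gw1.9.313.1, 0.493 for estExt_fgenesh5_pg.C_20195 and 0.489 for fgenesh5_pg.C_scaffold_10000029, and the lowest outside were 0.503, 0.509 and 0.510. There were 12 members with a ratio from 0.45 to 0.5 and 21 models from 0.5 to 0.55 that met the rest, so the set has no natural edge there. The condition on overlap removed 0 models, since each model of at least 300 FPKM with a ratio of at most 0.5 already met it. The narrowest gap was that of kg2.C_scaffold_2000050, between 2628 FPKM in glucose replicate 3 and 2022 FPKM in xylose replicate 1.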

How the data were processed

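The authors deposited 1 table of FPKM per gene model and library. The submitters' processing notes name Bowtie2 2.2.3, HTSeq 0.6.1 and TopHat2 2.0.12 without roles. The genome build was not given in the sources used here. Overlapping, antisense or near-identical models may share reads.

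FPKM was used as deposited, with 0 columns left unused. Members and lists were chosen with earlier results of these data known. For the background, limma 3.58.1 (R 4.3.3, eBayes with a trend, two-sided, Benjamini-Hochberg threshold 0.05) was run on log2(FPKM + 1) of 7766 models with means from 1 FPKM, after it had been tested on simulated data. Members have no p-value, since the rule used that contrast.

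Whole reads, totals and lengths were solved from FPKM steps (Python 3.11.15) for 9008 of 9010 models above 0, all members among them, within 0.0001 reads plus a relative 3e-09. Reads carry no molecular identifiers, so counting limits are only a lower limit of error.

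Named members were the 10 of highest glucose level, the 6 of lowest ratio, those nearest the thresholds, those with neighbouring numbers, and the 3 with the largest and smallest variation on xylose. Models just outside the thresholds are given by value only. Alternatives were other scalings (median of ratios, quantile, TPM), thresholds, pseudocounts, filters, a replicate block, recovered reads and each library left out.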

Additional observations from a re-analysis of the deposited data

How the results depend on the processing

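The number of models meeting the rule moved with its scaling and limits: 349 with the median of ratios (all 107 members among them), 70 at a level of 500 FPKM, 41 at a ratio of 0.25 and 164 at 0.67. Leaving out 1 library gave 104 to 112, with 98 to 106 of them members. With quantile normalization it was 118, 103 of them members, and with TPM 109, 99 of them members. The median of ratios divided glucose libraries by 0.630 to 0.679 and xylose libraries by 1.28 to 1.85. That scaling raised every glucose value and lowered every xylose value, so all 107 members had to meet the rule again. The level and ratio limits were left unchanged and so were looser relative to FPKM as deposited. Nothing is therefore read from the 349 models or from the members among them. The members' median log2 ratio of -1.77 became -2.96 with the median of ratios, which takes out the general rise, and -1.85 with quantile normalization. It ran from -1.83 to -1.72 when 1 library was set aside. Since the rule chose members by this ratio, nothing is read from its sign, which stayed negative in each setting run. The members' share of summed FPKM, 28.6% on glucose and 8.25% on xylose, was 22.7% and 6.95% as reads, and 21.3% and 7.48% without the most abundant member. Models called lower over the whole table numbered 1095, became 2752 under the first of these scalings and 2695 under the second; models called higher went from 5035 to 2859 and 2597. Without a library, 959 to 1172 were called lower and 4685 to 5247 higher. All 107 members were called lower with the median of ratios too, where 36.0% of tested models were. The rule used the same contrast, so nothing is read from the members' calls. The replicate block gave 1067 lower and 5034 higher. The labels tie no replicate number to a culture, and same-numbered libraries deviated with correlations of 0.000854, -0.0721 and 0.0732, so no pairing was assumed. Voom on recovered reads, chosen after the data were seen, called 1057 lower and 4923 higher. Pseudocounts and filters kept both counts within 1.5 times.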
